A study of Homo sapiens with 2 samples.

Results

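The genes described here are 10 regulators and markers of the epithelial-mesenchymal transition (EMT) with their named antisense genes: ZEB1 and ZEB1-AS1, ZEB2 and ZEB2-AS1, VIM and VIM-AS1, SNAI1, SNAI2, TWIST1 and CDH1. They were taken by name from a table of 64081 genes, and all 10 had a row. The question was how the counts on both strands of each locus compare in an epithelial line. The table holds poly(A)+ RNA-seq of LNCaP, an androgen-sensitive line of luminal type established from a prostate carcinoma. The only group, labelled control, comprised 2 biological replicates grown for 48 h in medium with 10% charcoal stripped serum, that is, in the absence of androgen. Both replicates were deposited in 1 column, so no value has a replicate error and no condition could be compared. Intervals are therefore exact 95% Poisson intervals for counts and exact 95% Clopper-Pearson intervals for shares. They cover counting error only, except the interval for the share of gene pairs, which is taken over the pairs.

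In an epithelium, E-cadherin, the product of CDH1, joins neighbouring cells at adherens junctions. ZEB1, ZEB2, SNAI1 (Snail), SNAI2 (Slug) and TWIST1 are transcription factors known to repress CDH1, directly or through one another, when cells turn mesenchymal. VIM encodes vimentin, the intermediate filament protein of mesenchymal cells. ZEB1 and ZEB2 and the microRNAs of the miR-200 family are known to repress each other. Antisense genes such as ZEB1-AS1, ZEB2-AS1 and VIM-AS1 start near the promoter of the coding gene and run on the other strand.

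The strand that a count stands for has to be stated first. The methods give fr-secondstrand as the library type of the LNCaP reads, in which read 1 has the sequence of the transcript, and the reverse setting of htseq-count for paired-end strand-specific data in general, without naming the LNCaP libraries there. Combined, these settings assign a read pair to the gene on the strand opposite to the transcript it came from. A count is therefore called here the count listed for a gene, and the transcript it would come from, if both settings were used for these libraries, lies on the other strand. With the other counting setting the strands would be exchanged. The housekeeping gene GAPDH was listed with 14 read pairs and the lncRNA gene ENSG00000269968, which faces 422 nt of its exons, with 17611. TUBA1B, a tubulin gene, was listed with 19 read pairs and TUBA1B-AS1, which faces 1571 nt of its exons, with 28150. EEF1A1, the only other housekeeping gene of the list with a counted opposite gene, was listed with 14, MTO1 opposite to 119 nt of its exons with 109, and EEF1A1-AS1 opposite to 218 nt with 1. The high count thus stood on an opposite gene at GAPDH and TUBA1B, and EEF1A1-AS1 was low. In the canonical transcripts the shared exon is 422 nt at GAPDH and 84 nt at TUBA1B. It is 0 nt for both opposite genes of EEF1A1, so EEF1A1 is not comparable with GAPDH and TUBA1B.

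In all, 9495309 read pairs were listed for genes, 6.39% of the 148700190 uniquely placed pairs, and 3 genes took 48.5% of them. The median of the 28576 genes with a count was 12 read pairs. Of the luminal prostate markers, 10 of 12 had at least 10 counts, led by KRT8 with 6947, KRT18 with 595 and STEAP2 with 105, against 2 of 5 basal markers (KRT15 with 24 and ITGB4 with 21, while KRT5 was at 0) and 1 of 7 endothelial and immune markers (CD68 with 33, while VWF, KDR and CD3E were at 0). Of all protein-coding genes, 44.2% reached 10 counts. The housekeeping list reached 10 counts in 6 of 12 genes (50%), near that share, with PPIA at 136, YWHAZ at 68 and HPRT1 at 0. Of its 9 genes with no exons opposite to them, 3 reached 10 counts. Their median was 5, and the actin gene ACTB, 1 of them, was listed with 4. Because of the strand, these counts are no direct measure of the cell type.

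Each of the 10 genes was listed with between 0 and 50 read pairs, while the genes opposite to CDH1 and VIM had up to 10923. Together the 10 genes had 105 read pairs. At least 10 counts were reached by 3 of the 10, namely ZEB1, VIM and VIM-AS1 (30%), against 24.3% of all genes, the same 44.2% of protein-coding genes and 28.4% of lncRNA genes, so the share of these genes was near that of the table. No read pair was listed for 5 of the 10, and a count of 0 allows up to 3 counts (the limit on 1 side at 95%, whereas the upper end of the 2-sided Poisson interval is 3.69). Per kb of exon, VIM-AS1 had the highest listed level with 14.6 counts per kb (9.91 to 20.7), followed by ZEB1 with 5.78 (4.29 to 7.62), VIM with 2.51 (1.34 to 4.29), CDH1 with 1.48 (0.677 to 2.81) and ZEB2 with 0.0765 (0.00926 to 0.276). The intervals of VIM-AS1 and ZEB1 did not overlap, those of VIM and CDH1 did, and those of ZEB1 and VIM met at their ends. The 5 genes at 0 cannot be ordered, since 3 counts would be 0.777 per kb for ZEB1-AS1 and 1.76 per kb for the shorter SNAI1, both above the level of ZEB2.

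**Figure D1:**
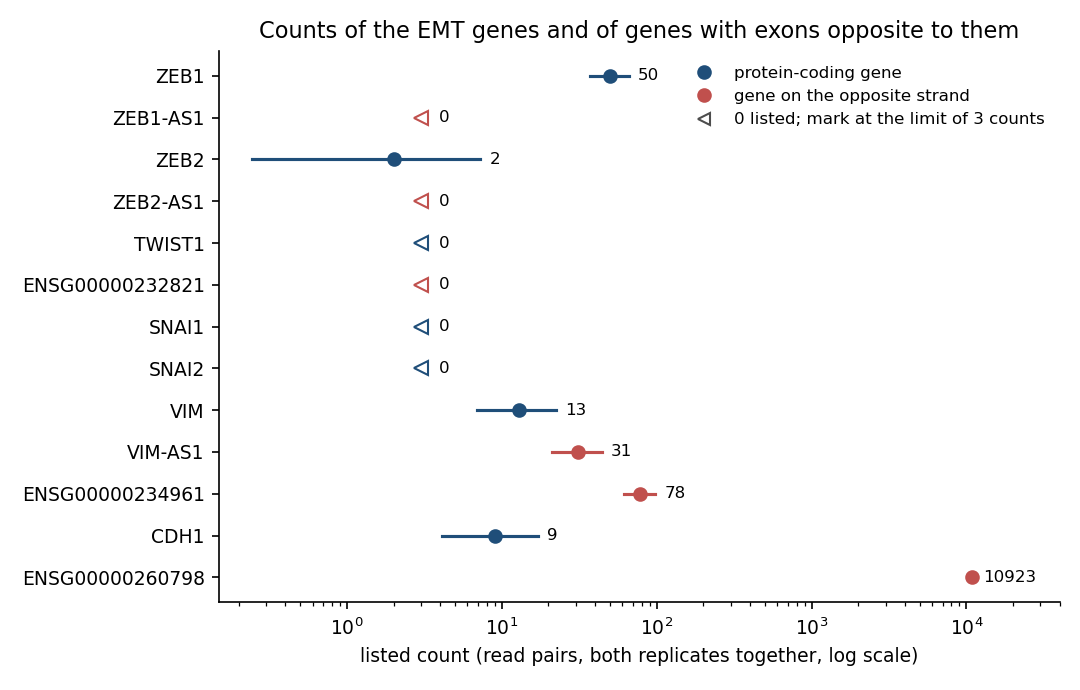
Listed read pairs (log scale) of the EMT genes and of the genes with exons opposite to them, both replicates together, with exact 95% Poisson intervals as bars. Open triangles at 3 mark genes listed at 0. ENSG00000260798, opposite to CDH1, stands at 10923, above every other gene shown, of which ENSG00000234961 is the highest at 78.

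CDH1 (ENSG00000039068, GRCh37 chr16:68771195-68869440, plus strand) was listed with 9 read pairs (4.12 to 17.1). The lncRNA gene ENSG00000260798 (chr16:68848233-68857429, minus strand) lies within CDH1 and was listed with 10923 (10719 to 11130). The opposite gene thus took 99.9% of the 10932 read pairs of the locus (lower limit 99.8%). Only 21 lncRNA genes of the 6321 with a count, and 12 protein-coding genes, had a higher count. Under the settings above, the 10923 read pairs came from the plus strand, on which CDH1 is transcribed, and the 9 from the minus strand.

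The exon maps show where the strands meet. ENSG00000260798 has 3 exons. Its exon 1 (chr16:68857167-68857429, 263 nt) covers 128 nt of exon 13 of the canonical CDH1 transcript, all of it coding, and otherwise only exons of other CDH1 transcripts. Its exon 2 (chr16:68849479-68849562, 84 nt) lies whole within coding exon 10. Its exon 3 (chr16:68848233-68848447, 215 nt) lies in a CDH1 intron. In all, 347 nt of the 562 nt of ENSG00000260798 face a CDH1 exon, and 212 nt face the canonical transcript, which has 16 exons. The sequences of both coding exons, read on the strand of CDH1, are shown because they hold the bases of the canonical E-cadherin transcript that the opposite gene faces. Capitals mark the bases facing ENSG00000260798.
CDH1 exon 10, chr16:68849418-68849662 (GRCh37, plus strand), 245 nt: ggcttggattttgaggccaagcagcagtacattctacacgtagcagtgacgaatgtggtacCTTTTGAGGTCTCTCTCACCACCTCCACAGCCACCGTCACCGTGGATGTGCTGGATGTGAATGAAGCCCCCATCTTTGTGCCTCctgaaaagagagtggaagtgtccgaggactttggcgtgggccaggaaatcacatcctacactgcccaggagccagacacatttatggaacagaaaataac
CDH1 exon 13, chr16:68857302-68857529 (GRCh37, plus strand), 228 nt: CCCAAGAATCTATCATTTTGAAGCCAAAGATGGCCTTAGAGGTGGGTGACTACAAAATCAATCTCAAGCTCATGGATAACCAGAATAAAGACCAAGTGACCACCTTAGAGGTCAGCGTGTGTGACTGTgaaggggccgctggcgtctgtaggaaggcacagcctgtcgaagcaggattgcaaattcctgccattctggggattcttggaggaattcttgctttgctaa
In the gene models used here, the remaining 14 exons of the canonical transcript have no gene opposite to them, so read pairs that touch only those exons on the strand of CDH1 would not be listed for any of these genes. How many of the 10923 read pairs touch these exons, rather than the intronic exon 3 or the rest of exon 1, cannot be read from the table, and the count is no measure of the whole E-cadherin transcript.

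**Figure D2:**
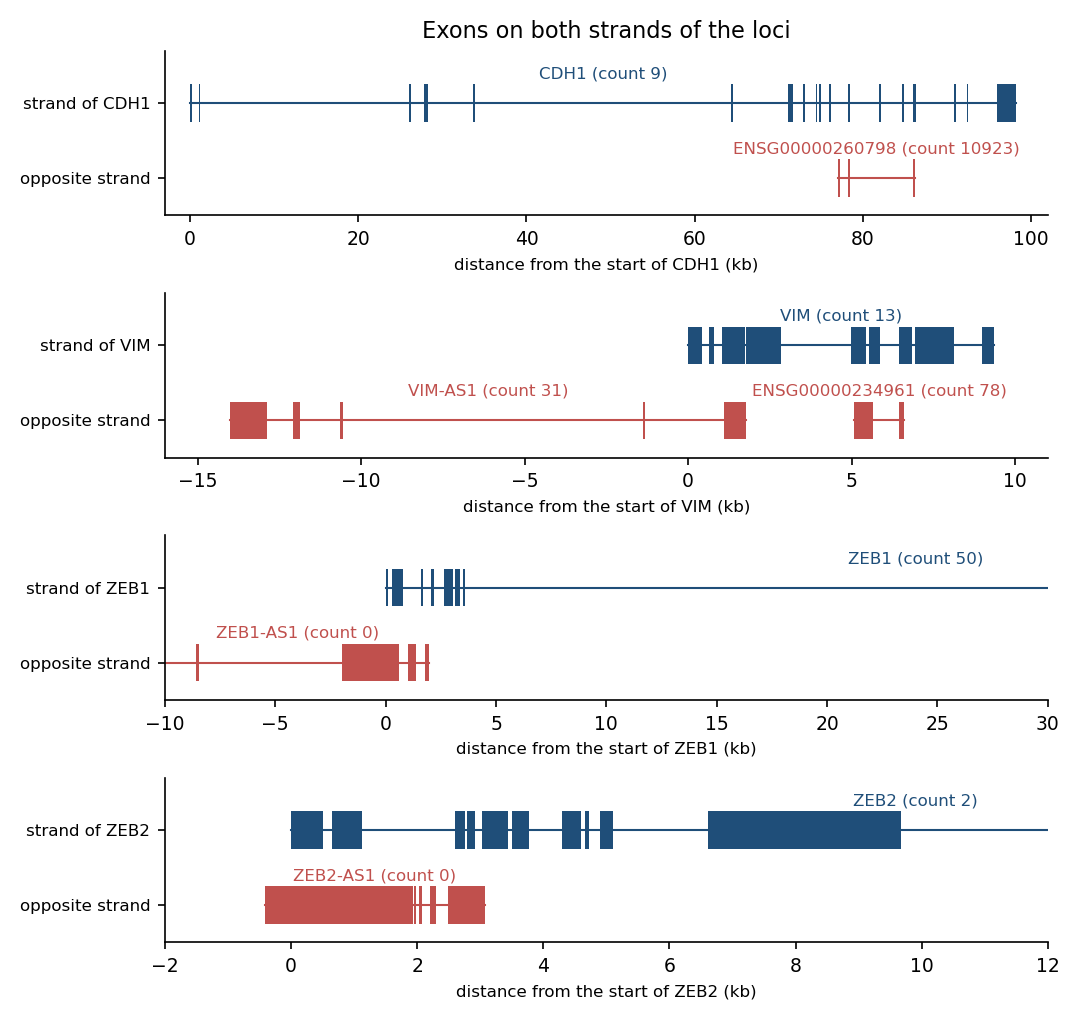
Exons (boxes) of CDH1, VIM, ZEB1 and ZEB2 in blue and of the genes opposite to them in red, against the distance from the start of the coding gene in kb, with the listed counts. The view of ZEB1 and ZEB2 ends before their 3′ ends and that of ZEB1-AS1 before its 3′ end. The counts of 10923, 31 and 78 stand on genes whose exons face exons of CDH1 and VIM, and those of ZEB1-AS1 and ZEB2-AS1 are 0.

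At the VIM locus (ENSG00000026025, chr10:17270240-17279592, plus strand) the count also stood mainly on the opposite genes, at a far lower level. VIM was listed with 13 read pairs (6.92 to 22.2). VIM-AS1 (chr10:17256238-17272017, minus strand) was listed with 31 (21.1 to 44), or 70.5% of the sum of the pair (54.8% to 83.2%). A further lncRNA gene of the minus strand, ENSG00000234961 (chr10:17275324-17276832), was listed with 78 (61.7 to 97.3). Both opposite genes together had 109 of 122 read pairs, 89.3% (82.5% to 94.2%). The intervals of VIM and ENSG00000234961 did not overlap, and those of VIM and VIM-AS1 overlapped narrowly. Under the stated settings the 109 read pairs came from the strand of VIM. As at CDH1, read pairs of that strand that touch only exons with no gene opposite would not be listed. This holds for the canonical exons after exon 6 and for any exon between VIM-AS1 and ENSG00000234961. The 109 are thus no measure of the whole VIM transcript.

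VIM-AS1 shares 656 nt of exon with VIM, 641 nt of them with its canonical transcript, and reaches beyond the start of VIM. ENSG00000234961 lies inside VIM and shares 619 nt, of which 342 nt face canonical exons 4, 5 and 6 of 10, all coding. The coding exons are shown for comparison with those of CDH1, with the bases facing ENSG00000234961 in capitals.
VIM exon 4, chr10:17275586-17275681 (GRCh37, plus strand), 96 nt: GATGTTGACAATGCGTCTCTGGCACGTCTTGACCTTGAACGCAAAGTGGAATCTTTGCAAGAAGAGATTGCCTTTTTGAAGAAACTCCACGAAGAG
VIM exon 5, chr10:17275769-17275930 (GRCh37, plus strand), 162 nt: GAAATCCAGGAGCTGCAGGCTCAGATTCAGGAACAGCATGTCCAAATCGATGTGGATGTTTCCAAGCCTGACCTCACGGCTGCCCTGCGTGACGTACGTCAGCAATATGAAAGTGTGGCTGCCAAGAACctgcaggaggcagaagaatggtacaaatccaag
VIM exon 6, chr10:17276692-17276817 (GRCh37, plus strand), 126 nt: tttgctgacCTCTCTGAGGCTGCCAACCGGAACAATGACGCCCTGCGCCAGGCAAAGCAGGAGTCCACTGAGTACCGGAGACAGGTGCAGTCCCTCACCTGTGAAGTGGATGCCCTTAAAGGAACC
The share of bases that are G or C was 44.8%, 51.9% and 57.9% in these VIM exons, and 51.4% and 47.8% in CDH1 exons 10 and 13.

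Scaled by the exon they share with the coding gene, the opposite genes of CDH1 and VIM were far apart. ENSG00000260798 had 3148 counts per 100 nt shared with CDH1 (3089 to 3207). ENSG00000234961 had 12.6 per 100 nt shared with VIM (9.96 to 15.7) and VIM-AS1 4.73 (3.21 to 6.71). The density at CDH1 was thus 250 times that of ENSG00000234961 (200.0 to 316) and 666 times that of VIM-AS1 (469 to 981). This scale is approximate, because a read pair may also have been listed through exon that is not shared. The shared part is 61.7% of ENSG00000260798, 87.7% of ENSG00000234961 and 30.9% of VIM-AS1.

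ZEB1 (ENSG00000148516, chr10:31607424-31818742, plus strand) showed the reverse arrangement. It was listed with 50 read pairs (37.1 to 65.9), the highest count of the 10 genes and above the count of 74.0% of the genes with a count. ZEB1-AS1 (chr10:31495207-31609376, minus strand) was listed at 0, and 0 of 50 allows a share of up to 7.11%. Their exons share 396 nt when all transcripts are taken. The exons of the canonical transcripts share 0 nt. Under the stated settings the 50 read pairs came from the minus strand, and those from the strand of ZEB1 that touched an exon of ZEB1-AS1 would be listed for ZEB1-AS1. The density at CDH1 was 4155-fold that at ZEB1-AS1, taking 3 counts for ZEB1-AS1. This is approximate and no strict lower limit, because read pairs on unshared exon are included and the error of the count at CDH1 is not. In addition, none of the 396 nt is shared by the canonical transcripts, against 212 of 347 nt at CDH1, so the scales are unlike.

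ZEB2 (ENSG00000169554, chr2:145121931-145278624, minus strand) was listed with 2 read pairs (0.242 to 7.22) and ZEB2-AS1 (chr2:145275545-145279044, plus strand) with 0. The 2 counts do not fix the share of ZEB2-AS1, whose interval runs from 0 to 84.2%. The exons share 1299 nt, the longest overlap of these loci, and 152 nt in the canonical transcripts. Against 3 counts for ZEB2-AS1, the density at CDH1 was 13630-fold that at ZEB2-AS1, on the same approximate scale. The fold grows with the length taken as shared, here all 1299 nt and not the 152 nt of the canonical transcripts. In the gene models used here the pseudogene AC009951.1, listed with 6, lies on the same strand within exons of ZEB2, over all of its 2966 nt. Since it was listed with read pairs of its own, the annotation that was counted on may differ there.

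No read pair was listed for TWIST1 (ENSG00000122691, chr7:19060614-19157259, minus strand), SNAI1 (ENSG00000124216, chr20:48599517-48605423, plus strand) or SNAI2 (ENSG00000019549, chr8:49830157-49834299, minus strand). The lncRNA gene ENSG00000232821 faces 141 nt of TWIST1 exon, none of it canonical, and was also at 0. With the allowance for a count of 0 used at ZEB1-AS1, the density at CDH1 was 1479-fold that at ENSG00000232821. As at ZEB1-AS1, this fold is approximate and no strict lower limit. SNAI1 has no gene opposite to its exons in the gene models. The gene opposite to SNAI2, ENSG00000288761, has no row in the count table and was not analysed here. Under the stated settings the counts of SNAI1 and SNAI2 speak of their opposite strand, and the strand on which Snail and Slug are transcribed was not measured by any gene used here.

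Other genes with exons on both strands give the scale for these loci. Of 6465 protein-coding genes with a counted gene opposite to their exons, 72.8% had at least 10 counts on the opposite genes and 57.2% had more there than on the gene itself, with a median of 69 counts. Of the 5 coding genes above with a counted opposite gene, CDH1 and VIM reached 10 counts and had more on the opposite genes, and ZEB1, ZEB2 and TWIST1 had 0. Where the opposite genes were lncRNAs (3161 coding genes), the median was 45 and 18.1% were at 0. CDH1 stood at percentile 99.3 of these genes, with 23 above it. Among 1730 gene pairs named as a gene and its antisense gene, 1588 had unequal counts, and the antisense gene was the higher in 50.1% of them (47.6% to 52.6%). VIM-AS1 was on that side, and ZEB1-AS1 and ZEB2-AS1 were not. The interval treats the gene pairs as independent, although some sense genes occur in several pairs, and it holds no counting error. The antisense gene was at 0 in 460 pairs (26.6%), and in 70 of these the coding or sense gene had at least the 50 counts of ZEB1, ZEB1 included.

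**Figure D3:**
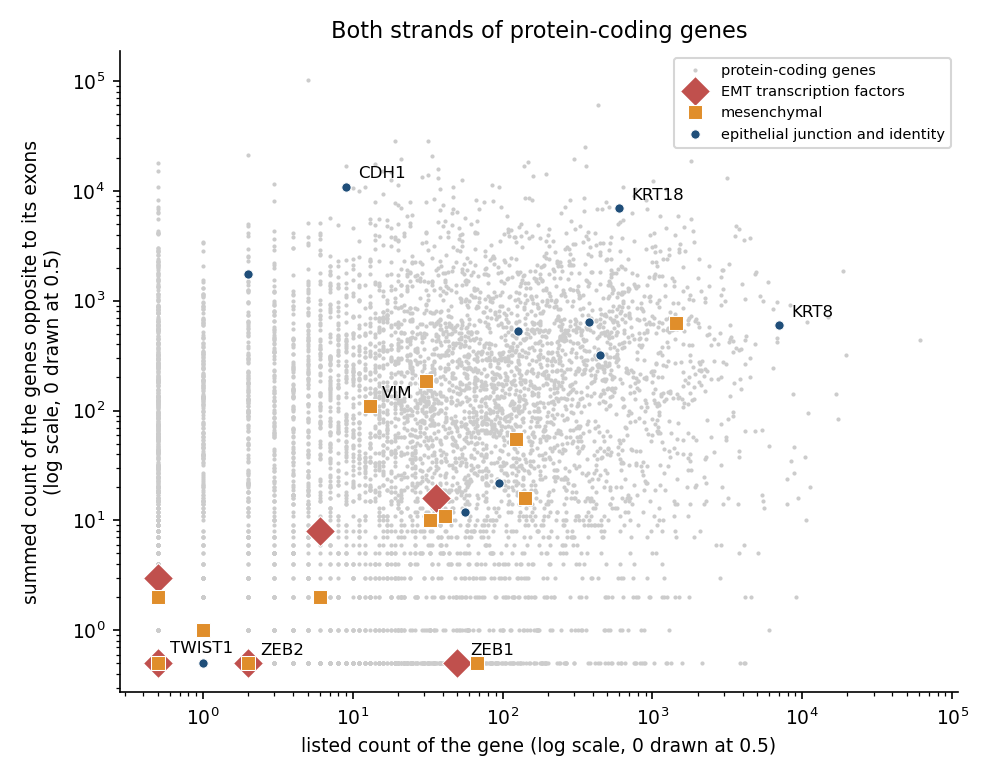
Listed count of each protein-coding gene (x) against the summed count of the genes opposite to its exons (y), both on log scales with 0 drawn at 0.5. Grey points are all 6465 coding genes with such a gene, red diamonds EMT transcription factors, orange squares mesenchymal genes and blue circles epithelial genes. CDH1 lies high on the left with 9 against 10923, VIM at 13 against 109, and ZEB1, ZEB2 and TWIST1 on the bottom line at 0.

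The wider EMT network was described with gene lists, by their counts and by those of the opposite genes. Of 14 EMT transcription factors, 3 had at least 10 counts (21.4%, against 44.2% of all protein-coding genes), namely ZEB1 with 50, SNAI3 with 36 and KLF8 with 14, with a median of 1.5, and 6 were at 0, among them TWIST2, PRRX1 and FOXC2. The 6 with a counted opposite gene had a median of 1.5 counts there, from 0 to 16, the highest being SNAI3-AS1 opposite to SNAI3. Of 28 mesenchymal genes, 13 had at least 10 counts (46.4%, near the share of all protein-coding genes), led by the collagen gene COL5A1 with 1997, the actin-binding gene TAGLN with 1426 and fibronectin FN1 with 1327, while 7 were at 0, among them N-cadherin CDH2, COL3A1 and SPARC. The opposite genes of 14 of them had a median of 6 counts, from 0 to 627, and 7 reached 10. The highest was PCSK7, which faces 2233 nt of TAGLN exon. Under the stated settings the counts listed for TAGLN, COL5A1 and FN1 came from the strand opposite to each, so they do not measure these mesenchymal transcripts. All protein-coding genes had a median listed count of 6.

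Of 32 genes of epithelial junctions and identity, 21 had at least 10 counts (65.6%, against 44.2% of all protein-coding genes) with a median of 28, and none was at 0. KRT8 with 6947, KRT18 with 595 and the claudin gene CLDN7 with 448 led. Under the stated settings these listed counts also came from the strand opposite to each gene, so they do not measure these epithelial transcripts. The opposite genes of 10 of them had a median of 562 counts, from 0 to 10923, and 9 reached 10 (72.8% of all coding genes with a counted opposite gene did), with CDH1 the highest. The lncRNA genes among these partners were listed with 10923, 12, 12, 0 and 0, and the others are protein-coding, KRT8 and KRT18 being each other's partner. The partners of the EMT transcription factors are lncRNAs and a pseudogene, so the medians of 562 and 1.5 set unlike partners side by side. KRT18 followed, with 6947 on KRT8, its keratin partner, which lies on the other strand and shares 525 nt of exon with it. CRB3, a polarity gene listed with 2, faced DENND1C with 1753, although over 15 nt only. CTNNA1, the α-catenin gene whose product ties E-cadherin complexes to actin, was listed with 379, and LRRTM2 opposite to it with 645 over 445 nt. Without genes that have exons opposite to them, the median listed count of the list was 18 over 21 genes.

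The regulators of CDH1 and of epithelial identity were described in the same way, and 44.2% of all protein-coding genes had at least 10. Of 12 epithelial transcription and splicing regulators, 6 had at least 10 counts (50%), led by FOXA1 with 718, ELF3 with 310 and ESRP2 with 168, and 6 with a counted opposite gene had a median of 361.5 there. Opposite to ESRP2, a splicing regulator of epithelial cells, NFATC3 was listed with 1508 over 227 nt, and opposite to ELF3 its antisense gene ELF3-AS1 with 149. OVOL1 was listed with 6, and the lncRNA gene ENSG00000255404 opposite to it with 736 over 1039 nt. TTC6, listed with 574, faces FOXA1 over 16 nt only. These partners are lncRNA and protein-coding genes, so this median also sets unlike partners together. Of the 10 co-repressors that ZEB and Snail factors are known to recruit, all 10 had at least 10 counts, led by CTBP1 with 888, KDM1A with 151 and SIN3A with 110, and a median of 63. Of 12 genes of the TGF-beta pathway, a known inducer of EMT, 8 had at least 10 (66.7%), led by TGFB1 with 707, SMAD3 with 82 and SMAD4 with 52, while the receptor genes TGFBR1 and TGFBR2 were at 0. Under the stated settings the listed counts of these lists came from the strand opposite to each gene and do not measure its transcript. TGFBR1 and TGFBR2 have no counted gene opposite to their exons, so their own strand was not measured by any gene used here. Lists are described only, since they overlap and their genes were not chosen at random.

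**Figure D4:**
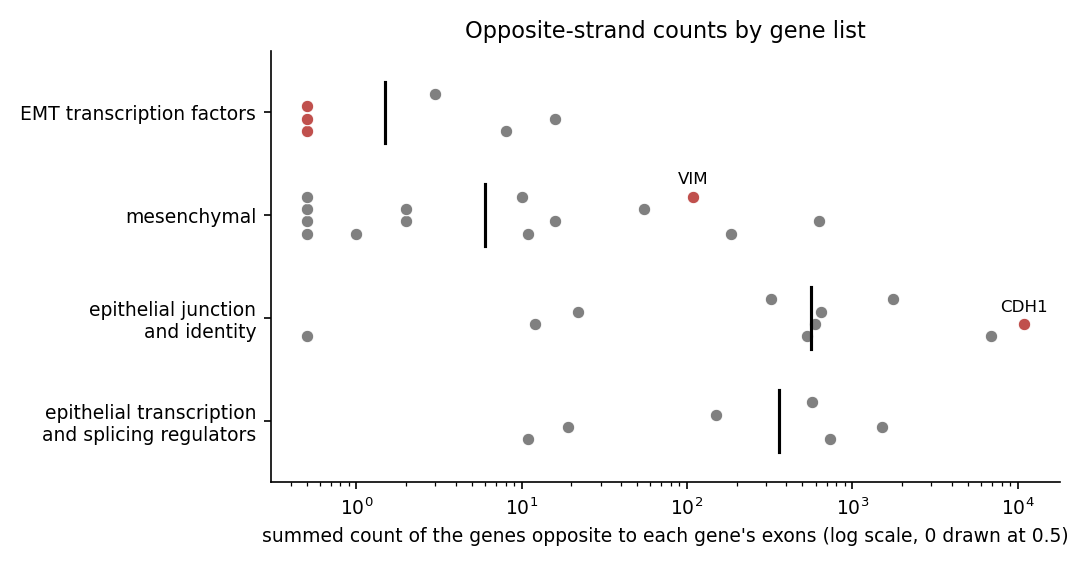
Summed counts of the genes opposite to each gene's exons (log scale, 0 drawn at 0.5) for 4 gene lists, 1 point per gene, with the median as a black line and VIM, CDH1, ZEB1, ZEB2 and TWIST1 in red. The medians are 1.5 for EMT transcription factors, 6 for mesenchymal genes, 562 for epithelial junction genes and 361.5 for epithelial regulators.

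The miR-200 family, which is known to repress ZEB1 and ZEB2, was not seen at its genes. MIR200A, MIR200B, MIR429, MIR200C and MIR141 were all at 0, and the host gene MIR200CHG had 2 counts. The host gene MIR205HG, of the miR-205 locus and not of this family, had 6 counts. Poly(A)+ libraries of this kind do not capture mature miRNAs, so the counts say nothing of their level. Under the stated settings the counts of the host genes came from their opposite strand. None of these 7 loci has a gene opposite to its exons. The strand on which the host genes are transcribed was then not measured by any gene used here. The mature sequences from RefSeq (GRCh38.p14), shown because they link the ZEB genes as targets, form 2 groups by the seed (bases 2 to 8, in capitals), AAUACUG in 3 of them and AACACUG in 2.
miR-200b-3p: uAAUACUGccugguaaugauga
miR-200c-3p: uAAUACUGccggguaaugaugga
miR-429: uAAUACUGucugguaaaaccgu
miR-200a-3p: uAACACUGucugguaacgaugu
miR-141-3p: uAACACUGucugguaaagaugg
The 3′ untranslated region of the canonical ZEB1 transcript (2543 nt) held 6 matches to the first seed (CAGTATT on the transcript) and 3 to the second (CAGTGTT). That of ZEB2 (5373 nt) held 5 and 4. At least as many matches, 9 in all, were found in 8 of 19778 coding genes, ZEB1 and ZEB2 included. SNAI2 held 1 match to the first seed, and VIM, SNAI1, TWIST1 and CDH1 none of either. Of all coding genes, 15.8% held the first and 17.9% the second, with a median length of 1035 nt. A match is a run of letters and was not tested as a site.

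Both strands of the ZEB1 start are close together. In the RefSeq promoter windows (GRCh38.p14, 250 bases before to 50 after a start), 6 of the 10 genes matched, with 14 windows. A ZEB1 window and a ZEB1-AS1 window shared 220 nt, and another pair of them 206 nt. The E-box CAGGTG, to which ZEB and Snail proteins are known to bind, was searched on both strands (CAGGTG or CACCTG). It was present in 2 of 7 ZEB1 windows and in 1 ZEB1-AS1 window, 3 of 14 in all, and in 20.6% of all 35116 windows. The 2 matches in the ZEB1-AS1 window are the same bases as 2 of those in the ZEB1 window that shares 220 nt with it. These windows are therefore not independent. The windows of ZEB2, ZEB2-AS1, VIM and VIM-AS1 did not hold these letters.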

How the data were processed

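Per the labels and methods, 2 biological replicates of LNCaP were sequenced with paired reads of 75 bases from directional poly(A)+ libraries. The authors used Trimmomatic 0.30 for trimming, TopHat2 2.0.12 and Bowtie2 2.2.3 for alignment (hg19) and HTSeq 0.6.1p1 for counting. The authors deposited raw counts of both replicates in 1 column, without normalization, so a fit between replicates was not possible. The library type and the counting setting stated for paired-end strand-specific data give opposite strands. That setting is not stated for these libraries by name, and it decides which strand each count stands for.

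Here identifiers were matched without version to GENCODE v44lift37 models on GRCh37 (55538 of 57820 Ensembl identifiers), a later release than the one counted on, so exon overlaps are approximate. Opposite genes share at least 1 nt of exon on the other strand. One alternative divided by the 9495309 read pairs on genes. Exonic length is the union of exons. Intervals are at 95%, and 0 allows 3 counts. Python 3.11.15, scipy 1.17.1 and matplotlib 3.10.9 were used, and the functions were tested on simulated data. The members and lists were chosen with earlier results of these data known. Named genes were the 10 members, genes opposite to or within 20 kb of them, the 3 highest and up to 3 at 0 of each list, and the 5 highest opposite genes of list genes. CTNNA1, LRRTM2, NFATC3, ELF3-AS1, SNAI3-AS1, EEF1A1 with its opposite genes MTO1 and EEF1A1-AS1, and KRT18 as a partner were chosen after their values were seen. The same holds for ACTB, PCSK7, TTC6 and OVOL1 with its opposite gene ENSG00000255404. The symbol ACPP was matched through RefSeq, and PECAM1 and MIR205 had no match. Some genes of the lists are not reported here by name. Alternatives tried were the scale, the minimum count and the overlap rule.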

Additional observations from a re-analysis of the deposited data

How the results depend on the processing

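No paired analysis was possible because both replicates stand in 1 column, and for the same reason no replicate could be left out. Of 47 alternative values, 31 moved by less than the spread allowed (the counting interval, or 1.5 times a count) and 16 moved by more. The share of ZEB1-AS1 and ZEB2-AS1 was 0 on every scale. The share of VIM-AS1 in the sum with VIM rose from 70.5% to 85.3% per kb of exon and 88.0% per kb of exon not shared, and fell to 58.6% per kb of gene span. With a minimum of 1 count, 5 of the 10 genes had a count, and with a minimum of 5 counts, 1 gene of the miR-200 and miR-205 list passed. The share of gene pairs with the antisense gene higher was 54.1% where the sum was at least 10, 55.2% where exons are shared and 60.5% per kb, against 50.1%. With overlapping gene spans in place of exons, the median count of opposite genes was 3 for EMT transcription factors, 209 for epithelial junction genes and 2.5 for mesenchymal genes. With canonical transcripts only, an alternative added after the data were seen, it was 172.5 over 6 epithelial genes and 3 over 11 mesenchymal genes. Without genes that have exons opposite to them, the median listed count was 5 for the housekeeping list, 18 for epithelial junction genes, 5 for epithelial regulators and 2 for mesenchymal genes. By opposite genes, the epithelial junction list had the highest of the 3 medians under each overlap rule, while EMT transcription factors stood above mesenchymal genes with gene spans only. The cause of these changes was not tested. At these counts no share can be given for ZEB2 with 2 read pairs, and no level for the 5 genes at 0.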

Other observations

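Besides the opposite genes described above, genes within 20 kb of these loci were listed with 0 to 52 read pairs. Next to CDH1, the P-cadherin gene CDH3, on the same strand and 9824 nt away, was listed with 34 read pairs and TANGO6 with 28, each above the 9 of CDH1. Within CDH1, the pseudogenes FTLP14 and RNA5SP429 were at 0. Near TWIST1, the deacetylase gene HDAC9 was listed with 52 and the lncRNA gene ENSG00000236536, 137 nt from TWIST1, with 0. Near VIM-AS1, the RNA methyltransferase gene TRDMT1 was listed with 3. Around ZEB1-AS1, LINC02664 and RNA5SP309 were at 0, as was SPTLC1P1 within ZEB1. At ZEB2, the pseudogene AC009951.2 on the opposite strand was listed with 4 and LINC01412 with 0. RNU6-147P near SNAI1 and ENSG00000233109 near SNAI2 were at 0.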
